A study of Mus musculus with 6 samples.

Results

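Insulin-only wells were the wells of mouse pancreatic islet plates in which insulin was the single abundant islet hormone. They were chosen by measured values: at least 500 unique molecular identifiers (UMIs), at most 20% of UMIs from mitochondrial genes, Ins1 plus Ins2 at 3.3% of UMIs or more, Sst under 0.73%, Gcg under 2.3% and Ppy under 10%. The rule was met by 996 wells, which was 47.1% of the 2115 wells that passed the filters on UMIs and mitochondrial share and came from 2304 wells in all. Levels of the 5 hormone genes in these wells are therefore descriptions, and other genes were free of the rule apart from mitochondrial genes, which one filter uses. The series design speaks of 2300 cells from 6 pancreata.

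Beta cells make, store and release insulin. Glucose enters through the transporter Slc2a2 (GLUT2), its metabolism closes potassium channels and opens calcium channels, and granules holding insulin and islet amyloid polypeptide are released. Proinsulin is folded in the endoplasmic reticulum (ER), so a beta cell carries large amounts of ER chaperones and oxidoreductases, and their genes are induced further when folding demand rises. Mafa, a transcription factor, and Ucn3, a peptide that acts on neighbouring delta cells, are late marks of beta cell maturity.

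The islets came from male Sox9-CreER; tdTomato mice that all received tamoxifen (8 mg) for 2 weeks from 10 weeks of age, so that cells in which Sox9 drove the Cre recombinase carry tdTomato. At 12 weeks the mice had a partial pancreatectomy (ppx), the removal of part of the pancreas, or a sham operation, and islets were taken 4 weeks later. Dissociated cells were sorted into 384-well plates and sequenced by MARS-seq, which counts UMIs at the 3′ end of transcripts, with 3 plates for each operation. Replicate 1 of both operations was tomato-positive. Sham replicate 2 was mixed, with 4 positive rows, and the remaining 3 plates (sham 3, ppx 2 and ppx 3) were tomato-negative. Nothing in the labels ties a plate to a mouse, so the spread between plates may be partly technical, and p-values refer to plates.

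The plates held between 1250861 and 1508513 UMIs, and no well barcode was shared between plates. Insulin-only wells numbered 24, 177 and 192 on sham plates 1 to 3, against 20, 292 and 291 on ppx plates 1 to 3. They made up 6.76% (95% exact Clopper-Pearson interval 4.38 to 9.89), 50.1% (44.8 to 55.5) and 56.6% (51.2 to 62.0) of the wells kept on the sham plates, against 5.62% (3.47 to 8.54), 80.7% (76.2 to 84.6) and 83.1% (78.8 to 86.9) on the ppx plates. These intervals cover counting error only. Both tomato-positive plates were far below the others. Ppx minus sham was 18.6 percentage points over 3 plates against 3 (exact two-sided permutation p = 0.6, where the smallest possible p is 0.1). The sort by tomato can set these shares. In total the wells held 4482936 UMIs, with a median of 4248 UMIs and 1668.5 genes per well.

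The label was checked on 6 beta cell markers that the rule did not use. All wells were thinned to 1000 UMIs for this, which left 986 insulin-only, 462 somatostatin-only and 141 glucagon-only wells and left out 10, 58 and 2. G6pc2, the islet glucose-6-phosphatase, was seen in 95.4% of insulin-only wells, 10.8% of somatostatin-only wells and 12.1% of glucagon-only wells. Ero1lb, the oxidase that renews disulfide bonds for proinsulin folding, was seen in 89.2%, 9.52% and 16.3%. Ucn3 was seen in 53.2%, 3.03% and 2.84% and Mafa in 50.9%, 1.30% and 1.42%. Slc2a2 was seen in 43.2%, 2.60% and 1.42%, and the prolactin receptor Prlr in 40.4%, 0.866% and 2.13%. At full depth, with median depths of 4248, 1560.5 and 3357 UMIs, Ucn3 was seen in 90.6%, 3.85% and 8.39% and Mafa in 84.1%, 2.31% and 4.2%. At least 3 of the 6 markers were present in 86.5% of the thinned insulin-only wells and in 0% of the wells of both other groups, and no insulin-only well lacked all 6, against 73.8% of somatostatin-only and 69.5% of glucagon-only wells. These markers went with the name beta. They were chosen with earlier results of these data known, so this is not an independent check.

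The thresholds cut through a sparse part of the distribution for insulin. The lowest members had 4.55%, 4.91% and 6.11% of their UMIs in Ins1 plus Ins2, and the highest wells below the threshold had 3.15%, 3.06% and 3.05%. For Sst the boundary was less clear, since the highest member had 0.720% and the lowest well left out for Sst alone had 0.732%, with 170 such wells. The highest member had 0.936% Gcg and 8.77% Ppy.

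The median share of Ins1 plus Ins2 was 26.1%, 22.8% and 25.4% of a well's UMIs on sham plates 1 to 3, and 31.1%, 15.8% and 14.9% on ppx plates 1 to 3. The middle 50% of wells lay between 24.1% and 28.4%, 20.05% and 24.8%, and 21.9% and 27.9% on the sham plates. On the ppx plates they lay between 25.5% and 34.5%, 13.9% and 18.1%, and 12.8% and 17.03%. Both tomato-negative ppx plates were below all sham plates, and the tomato-positive ppx plate was above them, so the operations overlapped (difference of means -4.17 percentage points, exact permutation p = 0.4). Within tomato-positive plates ppx minus sham was 5.01 points and within tomato-negative plates it was -10.1 points. Over all members the 5th percentile was 10.6% and the 95th 29.8%.

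**Figure D1:**
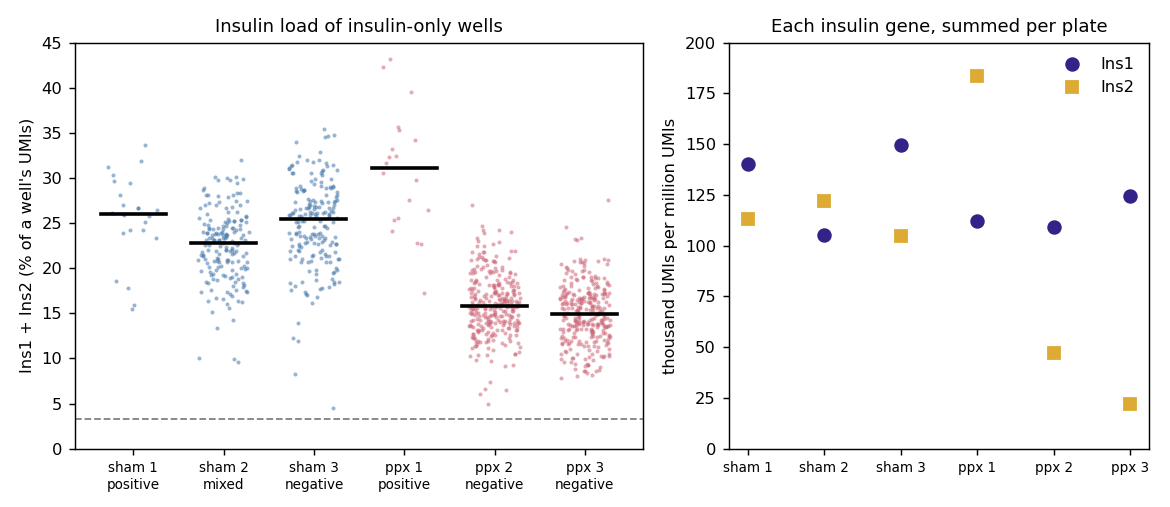
Left, the share of UMIs from Ins1 plus Ins2 in each insulin-only well (points) by plate, with tomato status under the plate name, medians as black bars and the 3.3% threshold dashed. Right, each insulin gene in CPM of all UMIs, summed over the insulin-only wells of a plate. Ins2 ranged from 22112 to 183536 on this scale while Ins1 stayed between 105242 and 149802.

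Mice have a pair of insulin genes, Ins1 on chromosome 19 (52264297 to 52265476, GRCm38) and Ins2 on chromosome 7 (142678656 to 142743381, GRCm38), and most of the difference between plates was in Ins2. Summed over insulin-only wells, Ins1 gave 140089, 105242 and 149802 CPM (UMI counts scaled to a common total, here that of all UMIs) on the sham plates, against 112246, 109357 and 124702 on the ppx plates. Its highest plate was 1.42 times its lowest. Ins2 gave 113004, 121974 and 104951 CPM on the sham plates, against 183536, 47166 and 22112 on the ppx plates, a ratio of 8.30 between the highest and the lowest plate. Ins1 was thus 55.4%, 46.3% and 58.8% of the insulin UMIs on the sham plates, against 37.9%, 69.9% and 84.9% on the ppx plates. The 3 ppx plates bracketed the sham plates (difference 10.8 points, exact permutation p = 0.5).

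The balance between the insulin genes differed between plates far more than between wells of a plate. On ppx plate 3 the middle 50% of wells had Ins1 parts of 82.9% to 86.5%, on ppx plate 1 of 34.8% to 40.7%, and on sham plate 2 of 42.6% to 48.6%. Somatostatin-only wells, with 0.473% to 0.797% of their UMIs from insulin, had Ins1 parts of 56.2%, 44.3% and 55.8% on the sham plates, against 38.4%, 66.2% and 74.8% on the ppx plates, so the order of the plates was nearly the same there. Glucagon-only wells had Ins1 parts of 47.9%, 42.7% and 57.2% on the sham plates, against 31.0%, 76.3% and 82% on the ppx plates. The source of the insulin UMIs in wells of these other groups was not tested. The transcripts of both genes are alike, and how reads that match both were assigned is not given in the sources used here. Any part of read assignment in this pattern was not tested.

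Insulin load varied less between wells of a plate than depth did. The SD of the log2 insulin share was 0.296, 0.281 and 0.343 on the sham plates, against 0.332, 0.334 and 0.326 on the ppx plates. The SD of log2 UMIs was 0.547, 0.560 and 0.636 and then 0.708, 0.754 and 0.713. Median UMIs per well were 5397, 4483 and 4814.5 on the sham plates, against 4528.5, 3848 and 3992 on the ppx plates (difference -775, exact permutation p = 0.2). The median mitochondrial share was 9.17%, 8.24% and 8.32% and then 7.39%, 9.53% and 10.8% (difference 0.670 points, exact permutation p = 0.6), a direction that reversed to -0.115 points without ppx plate 3. With Benjamini-Hochberg adjustment over the 6 plate values tested, every exact permutation p was 0.6.

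Beside somatostatin-only wells of the same plates, insulin-only wells were higher in most beta identity and ER genes tested. UMIs were summed per plate and group and compared with edgeR's quasi-likelihood test with plate as a block, without the 5 hormone genes, so levels here are CPM of non-hormone UMIs. Of 5955 genes tested, 591 (9.92%) were higher in insulin-only wells and 354 (5.94%) were lower at an adjusted p under 0.05, and leaving out sham plate 2 or both tomato-positive plates reduced the 945 calls to 616 and 518. Against glucagon-only wells, 619 (17.9%) of 3452 genes were higher and 580 (16.8%) were lower, and the 1199 calls fell to 793 without sham plate 3. All 6 non-hormone markers were higher in both comparisons, with median log2 differences of 4.97 and 4.94 beside 0.10 and 0.01 over all genes tested. Median UMIs per well differed between these groups on every plate, from 1479.5 to 1975 in somatostatin-only wells, 2836.5 to 9169 in glucagon-only wells and 3848 to 5397 in insulin-only wells.

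Mafa stood at 1228, 1327 and 1438 CPM in insulin-only wells of the sham plates and 1090, 1293 and 1235 CPM on the ppx plates. In somatostatin-only wells it was at 19.1, 13.4 and 102 CPM and then 23.95, 0 and 0 CPM (log2 difference 5.66, SE 0.33, adjusted p = 5.0e-63). Ucn3 reached 854, 1268 and 1541 CPM on the sham plates, against 1121, 1302 and 1308 CPM on the ppx plates, and lay between 0 and 122 CPM in somatostatin-only wells (log2 difference 5.15, SE 0.31). The lowest Ucn3 level was on the tomato-positive sham plate. G6pc2 lay between 4536 and 6539 CPM, Ero1lb between 3411 and 4428 CPM, Slc2a2 between 725 and 1141 CPM and Prlr between 737 and 1032 CPM. None of these ranges touched those of the somatostatin-only and glucagon-only wells, in which Ero1lb did not exceed 356 CPM.

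**Figure D2:**
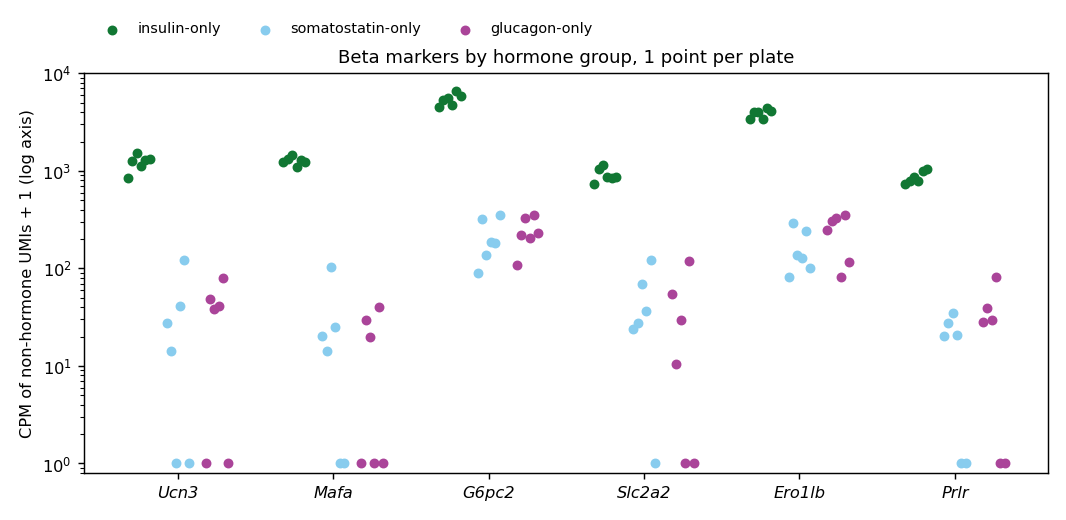
Levels of the 6 non-hormone beta markers (CPM of non-hormone UMIs plus 1, log axis) in insulin-only, somatostatin-only and glucagon-only wells, 1 point per plate in the order sham 1 to 3 and ppx 1 to 3. The insulin-only points of each gene lie above all points of both other groups, for Mafa at 1090 CPM or more against 102 CPM or less. Insulin-only points are from the comparison with somatostatin-only wells.

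Among 30 beta identity genes, 26 were tested against somatostatin-only wells, of which 17 were higher and 4 lower. Iapp, the amyloid peptide co-released with insulin, was at 100070 ± 7026 CPM (SD, n = 6 plates) against 20866 ± 4813 CPM. Slc30a8, the zinc transporter of insulin granules, was at 1184 ± 186 CPM against 29.5 ± 24.97 CPM. The fatty acid receptor Ffar1 (218 ± 63.4 CPM against 2.63 ± 4.82 CPM) and the taste-type ion channel Trpm5 (172 ± 55.1 against 4.2 ± 5.51 CPM) were likewise higher on 6 of 6 plates. The 4 lower genes were Isl1, Rfx6, Glis3 and Nnat. Against glucagon-only wells 16 of 22 rose and Isl1 alone fell, with Iapp at 103040 ± 7239 CPM against 3235 ± 753 CPM. The prohormone convertase Pcsk1, which cuts proinsulin, was at 998 ± 126 CPM against 33.6 ± 31.5 CPM in glucagon-only wells. Creb3l1, an ER-resident transcription factor, had 480 UMIs in insulin-only and 0 in glucagon-only wells, and was at least 16.9-fold higher when 3 UMIs over the glucagon-only wells are taken as the limit.

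Protein folding genes were higher in beta wells than in either neighbour. Of 37 ER genes tested against somatostatin-only wells, 27 were higher and none was lower, with a median log2 difference of 1.27, and against glucagon-only wells 30 of 34 were higher and none lower, with a median of 1.18. Pdia6, a protein disulfide isomerase, was at 1542 ± 281 CPM against 444 ± 76.4 CPM in somatostatin-only wells, and the calcium pump Atp2a2, which fills the ER, was at 1583 ± 228 CPM against 374 ± 137 CPM. The integrated stress response, which raises Atf4 and its targets when translation is restrained, had 12 of 16 genes higher than in somatostatin-only wells and none lower. Its glutathione-degrading target Chac1 was at 191 ± 55.3 CPM against 3.27 ± 5.25 CPM, and Atf5 at 510 ± 69.0 against 25.8 ± 23.2 CPM. Against glucagon-only wells the same list divided, with 7 of 13 higher, among them Atf5, and 4 lower, among them Atf3.

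All 22 ribosomal protein genes tested were lower than in glucagon-only wells, with a median log2 difference of -1.17, for example Rpl8 at 1059 ± 92.9 CPM against 2426 ± 318 CPM. Against somatostatin-only wells 3 of 23 were lower and 1 higher. Immediate early genes, which rise within minutes of activity or of tissue handling, were also lower than in glucagon-only wells, where 15 of 28 genes of the list fell and 2 rose. Egr1 was at 1502 ± 255 CPM against 4418 ± 676 CPM and Zfp36 at 214 ± 39.9 against 1139 ± 332 CPM. The metallothioneins, which bind zinc and other metals, were higher in beta wells, with Mt2 at 852 ± 113 CPM against 62.2 ± 50.5 CPM in somatostatin-only wells and Mt1 at 1298 ± 261 against 246 ± 59.8 CPM. Gpx3, a secreted glutathione peroxidase, was lower, at 256 ± 99.9 CPM against 2179 ± 532 CPM in somatostatin-only and 6921 ± 514 CPM in glucagon-only wells. All 9 delta markers tested against somatostatin-only wells were lower in insulin-only wells, such as Hhex (18.8 ± 30.7 against 512 ± 152 CPM). So were all 10 alpha markers tested against glucagon-only wells. Cells had been placed in these groups by Sst and Gcg. Of 5 alpha markers tested against somatostatin-only wells, Ttr and Slc7a2 were higher in insulin-only wells and Dpp10 was lower. Of 3 delta markers tested against glucagon-only wells, Fxyd6 was higher and Rbp4 and Pyy were lower.

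Between operations, 7 ER genes were higher after ppx in insulin-only wells, and the beta identity genes Gad1 and Trpm5 were lower. UMIs of insulin-only wells were summed per plate and 3 sham plates were compared with 3 ppx plates by edgeR's quasi-likelihood test, here on CPM of all UMIs with TMM scaling. Of 8160 genes tested, 21 (0.257%) were higher and 8 (0.098%) were lower in ppx at an adjusted p under 0.05. The groups did not overlap for 21 of the 29, compared with 13.7% of all genes tested. The count was 12 without sham plate 3, 13 without ppx plate 3, 14 without ppx plate 2, 17 without sham plate 2 and 19 without sham plate 1, while it was 51 without ppx plate 1. It was 52 without both tomato-positive plates, which shared 28 genes with the 29. DESeq2 called 13 higher and 2 lower. With tomato status as a covariate 32 genes were called, of which 19 were among the 29, and Hyou1, Gem, Hnrnpl, Sgsm1 and Lyve1 were among those lost.

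Of 38 ER genes tested, 7 rose after ppx, none fell and 34 had a positive log2 difference, with a median of 0.34 beside -0.01 over all genes. The summed ER list was 19452, 20167 and 19240 CPM of non-hormone UMIs on the sham plates, against 21855, 24837 and 25856 on the ppx plates. All ppx plates were above all sham plates. Such separation was not particular to the ER list. Summed oxidative phosphorylation, proliferation and alpha marker genes were also higher on all ppx plates. Summed integrated stress response, class I antigen presentation, oxidative and metal stress, cell contact and lymphocyte genes were lower on all ppx plates. Hspa5 (BiP), the main chaperone of the ER and a sensor of unfolded protein, was at 1879, 1679 and 1667 CPM on the sham plates, against 2672, 2902 and 3185 CPM on the ppx plates. This was a log2 difference of 0.76 (SE 0.14, adjusted p = 0.0025), and the call was lost without sham plate 2, sham plate 3 or ppx plate 3.

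Derl3, a channel component for the removal of misfolded protein, showed the largest change among the called ER genes. It was at 7.55, 10.8 and 10.98 CPM on the sham plates, against 80.4, 49.2 and 51.8 CPM on the ppx plates (log2 difference 2.28, SE 0.32, adjusted p = 5.2e-05). These levels rest on few counts, 20 UMIs over all sham plates and 135 over all ppx plates. Creld2, a stress-induced disulfide isomerase, was at 158, 125 and 134 CPM and then 342, 253 and 285 CPM (log2 difference 1.062, SE 0.15). The ER prolyl isomerase Fkbp11 was at 136, 168 and 143 CPM and then 211, 327 and 319 CPM (log2 difference 1.02, SE 0.15). None of these ranges overlapped. The BiP partner Sdf2l1 was at 106, 98.2 and 51.6 CPM on the sham plates, against 100, 207 and 259 CPM on the ppx plates, so its tomato-positive ppx plate lay within the sham range (log2 difference 1.505, SE 0.20, adjusted p = 4.6e-05). Creld2 and Fkbp11 were called in all 15 alternative settings. Derl3 and Sdf2l1 were called in 14, while DESeq2 gave no adjusted p for them and so did not call them. Hyou1, a BiP exchange factor, rose by 0.85 and the disulfide isomerase Pdia4 by 1.17 on the log2 scale. Hyou1 lost its call without each sham plate in turn or without ppx plate 3, and Pdia4 without sham plate 1, sham plate 3 or ppx plate 3.

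Manf, a secreted protein of the same response, did not pass the test and was at 830, 795 and 808 CPM on the sham plates, against 824, 1331 and 1290 CPM on the ppx plates (adjusted p = 0.14). No gene of the integrated stress response list was called among 19 tested, and 10 were positive. The list summed to 3373.5 to 3603.7 CPM of non-hormone UMIs on the sham plates and 3133.4 to 3281.4 on the ppx plates. Its member Chac1 was at 149 ± 35.02 CPM in sham and 97.2 ± 5.32 CPM in ppx (adjusted p = 0.30). The difference between the 2 stress lists was not tested.

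Promoters of the 21 genes that were higher after ppx were searched for the ER stress response elements ERSE (CCAAT, then any 9 bases, then CCACG) and ERSE-II (ATTGG, then any 1 base, then CCACG), on both strands. Both elements share the letters CCACG. The windows were RefSeq promoters of GRCm38.p6 from 250 bases before to 50 bases after the gene's start, and 16 of the 21 genes had one. ERSE was found in 3 of the 16 (18.8%), compared with 0.137% of the 27025 genes of the promoter table, and ERSE-II in none, compared with 0.0444%. The 250 bases before the start of these 3 genes are shown with the element in capitals, since these are the called genes whose start regions carry it. It begins 65 bases before the start site in Hspa5, 126 bases before it in Creld2 and 156 bases before it in Derl3. A match is a description of these letters and says nothing about binding.
Hspa5 promoter, chr2:34771840-34772089, plus strand, element on the plus strand: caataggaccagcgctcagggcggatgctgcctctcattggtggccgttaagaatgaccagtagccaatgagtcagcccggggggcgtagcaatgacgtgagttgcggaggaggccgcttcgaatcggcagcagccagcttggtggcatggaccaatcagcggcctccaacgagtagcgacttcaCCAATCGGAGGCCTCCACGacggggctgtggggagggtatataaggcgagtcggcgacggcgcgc
Creld2 promoter, chr15:88819396-88819645, plus strand, element on the minus strand: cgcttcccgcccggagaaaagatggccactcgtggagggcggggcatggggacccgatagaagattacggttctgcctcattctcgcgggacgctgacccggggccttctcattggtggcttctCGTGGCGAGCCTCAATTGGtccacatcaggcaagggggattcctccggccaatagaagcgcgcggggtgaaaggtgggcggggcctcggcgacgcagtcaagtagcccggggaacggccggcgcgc
Derl3 promoter, chr10:75893148-75893397, plus strand, element on the minus strand: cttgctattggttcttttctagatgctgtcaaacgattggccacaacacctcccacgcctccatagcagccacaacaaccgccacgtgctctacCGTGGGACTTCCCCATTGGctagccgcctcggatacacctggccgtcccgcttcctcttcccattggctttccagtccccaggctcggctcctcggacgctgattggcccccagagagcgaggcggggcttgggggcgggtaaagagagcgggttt

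Outside the ER list, Gc, the vitamin D-binding protein, which alpha cells also make, had the smallest adjusted p. It was at 158, 123.4 and 124 CPM on the sham plates, against 372, 315 and 289 CPM on the ppx plates (log2 difference 1.28, SE 0.15, adjusted p = 2.6e-06), and it was called in all 15 alternative settings. Gcg, the defining alpha transcript, was lower, at 3108.5, 3368 and 2133.5 CPM on the sham plates, against 1647, 951 and 367 CPM on the ppx plates. Gcg is part of the rule, so its level is a description although it was counted among the lower genes. Its call was also lost by DESeq2 (adjusted p = 0.23). There were 16, 48 and 54 glucagon-only wells on the sham plates, against 5, 13 and 7 on the ppx plates, and their part in the Gcg difference was not tested. In somatostatin-only wells thinned to 1000 UMIs, a Gcg UMI was likewise seen in 95.1%, 89.1% and 82.4% of wells on the sham plates, against 87.7%, 75% and 9.09% on the ppx plates. The other alpha markers tested, Ttr and Slc7a2, were not called.

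Dapl1 (285 ± 41.1 CPM against 145 ± 5.83 CPM in sham), the NF-kappaB inhibitor Nfkbia (228 ± 39.7 against 140 ± 22.6 CPM), the splicing factor Hnrnpl (94.5 ± 11.5 against 47.4 ± 9.32 CPM), the small GTPase Arf5 (76.6 ± 23.6 against 36.6 ± 9.79 CPM) and Gem, a regulator of calcium channels (41.5 ± 3.19 against 19.0 ± 3.54 CPM), also rose without overlap. Ppib, another ER prolyl isomerase, rose by 0.62 on the log2 scale and Srp9, of the signal recognition particle, by 0.70. Cmas, Rgs4, Ift20, Gm10036 and E130111B04Rik were also among the 21. Gem and Hnrnpl lost their calls without each of sham plates 1 to 3, ppx plate 2 and ppx plate 3. Arf5 lost its call without sham plate 3, ppx plate 2 or ppx plate 3, Nfkbia without sham plate 2, sham plate 3 or ppx plate 3, and Dapl1 without ppx plate 3 (adjusted p = 0.054).

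Gad1, which makes the neurotransmitter GABA in beta cells, fell after ppx. It was at 90.5, 152 and 132 CPM on the sham plates, against 40.2, 57.3 and 58.8 CPM on the ppx plates, with no overlap. The log2 difference was -1.25 (SE 0.19, adjusted p = 0.00019), on 259 UMIs in sham and 150 in ppx. Gad1 was called in 14 alternative settings, while DESeq2 gave no adjusted p for it and so did not call it. Trpm5 was at 90.5, 145 and 164 CPM and then 100, 74.2 and 89.4 CPM (log2 difference -0.82, adjusted p = 0.023). Ppx plate 1 lay within the sham range, and its call was lost without sham plate 2, sham plate 3, ppx plate 2 or ppx plate 3. Camk2n1, an inhibitor of CaM kinase II, was at 679, 695 and 616 CPM and then 432, 411 and 461 CPM (log2 difference -0.60, adjusted p = 0.040), and its call was lost without each plate other than ppx plate 1. Sgsm1 and the hyaluronan receptor Lyve1 fell by 1.19 and 1.16 on the log2 scale, and Itpr1, a calcium release channel of the ER whose plates overlapped, fell by 2.04. The calls of Sgsm1 and Lyve1 were each lost without sham plate 2 or ppx plate 3, among other settings. Gm21658 and Gcg completed the 8.

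**Figure D3:**
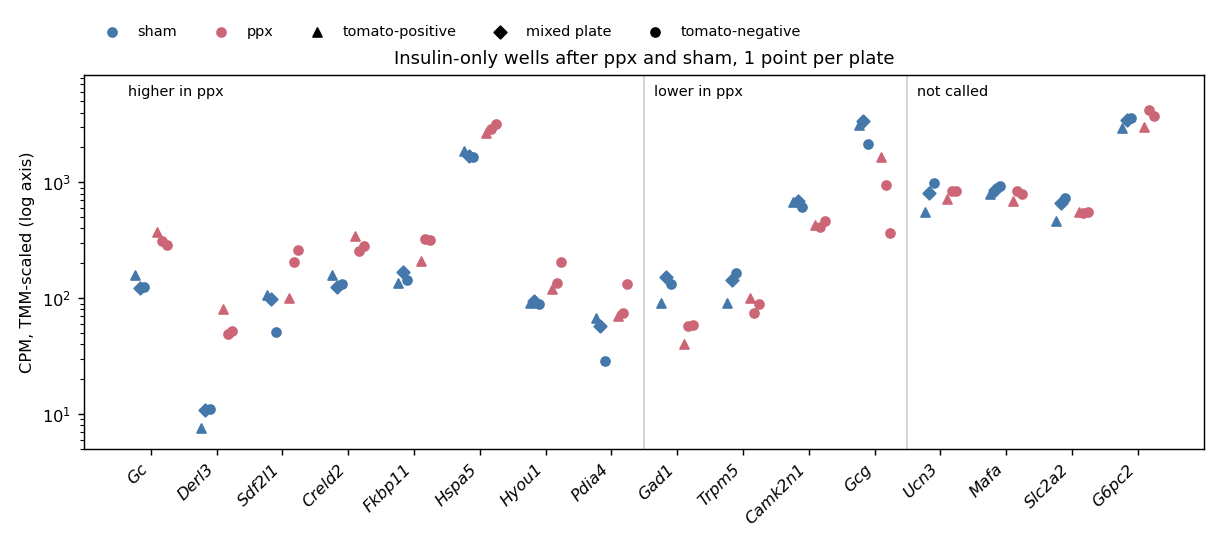
Levels in insulin-only wells (CPM of all UMIs with TMM scaling, log axis) of 8 genes called higher in ppx, 4 called lower and 4 markers not called, 1 point per plate. Colour gives the operation and shape the tomato status. For Hspa5 the sham plates lie between 1667 and 1879 CPM and the ppx plates between 2672 and 3185 CPM, while Ucn3, Mafa, Slc2a2 and G6pc2 overlap.

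None of the 8 markers of the beta label was called, and Ins1 and Ins2 among them are part of the rule. Ucn3 was at 785 ± 221 CPM in sham and 796 ± 72.1 CPM in ppx (log2 difference -0.00, SE 0.16), Mafa at 857 ± 66.3 and 772 ± 71.7 CPM (-0.14, SE 0.14), Slc2a2 at 622 ± 138 and 548 ± 8.37 CPM (-0.23, SE 0.15), and G6pc2 at 3305 ± 334 and 3646 ± 608 CPM (0.15, SE 0.14). Of 28 beta identity genes tested, none rose, 2 fell (Trpm5 and Gad1) and 8 were positive, with a median log2 difference of -0.14. Of 36 nuclear genes of oxidative phosphorylation, which carry the respiratory chain, none was called, though 33 were positive, with a median of 0.14 beside 48.6% of all genes being positive. Of 10 proliferation genes tested none was called, though 9 were positive, with a median of 0.17. Among 7 tested genes that are low or disallowed in mature beta cells, Gc alone was called, as higher. A p above the threshold does not show that a gene was level.

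Whether these differences were larger in beta wells than in alpha wells was tested as an interaction on the plates, where glucagon-only wells numbered 5 to 54 per plate. Of 3452 genes, 1 (0.029%) was called, and 239 had an unadjusted p under 0.05. This was Pyy, with an interaction of -0.91 on the log2 scale (SE 0.21, adjusted p = 0.037), and DESeq2 called 0 genes. The call of Pyy was also lost without sham plate 1, without ppx plate 3 and with no filter on low counts. Pyy was at 15266, 8762 and 19173 CPM in glucagon-only wells of the sham plates, against 18075, 19975 and 55593 CPM on the ppx plates. Hspa5 was at 2115, 1730 and 1518 CPM in glucagon-only wells of the sham plates and 2300, 1938 and 1678 CPM on the ppx plates, while in insulin-only wells it went from 2962, 2678 and 2672 CPM to 4411, 4655 and 5090 CPM on the same non-hormone scale. Its interaction of 0.59 (SE 0.21) did not pass (adjusted p = 0.52). Gc had an interaction of 1.03 (SE 0.29, adjusted p = 0.27). No ER gene of 34 was called, and 25 were positive, beside 58.98% of all genes tested.

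Within a plate, wells with more insulin differed from wells with less in a small set of genes. Wells were ranked on each plate by their Ins1 plus Ins2 share, and the upper and lower tertiles were compared with plate as a block. Of 5825 genes tested, 12 (0.206%) were higher and 15 (0.258%) were lower in high-insulin wells. The tertiles are ranges of a continuous measure, with median insulin shares of 18.8% and 26.0% on sham plate 2 and 11.7% and 17.9% on ppx plate 3, and the middle tertile lies between them. They also differed in depth, with median UMIs of 4016 (low) and 5472 (high) on sham plate 3 and 4246 and 3301 on ppx plate 2, and in mitochondrial share, with 11.2% and 6.16% on sham plate 3 and 12.2% and 8.40% on ppx plate 3. The count was 10 without sham plate 3, 14 without sham plate 2 or ppx plate 2, 47 without both tomato-positive plates and 50 without ppx plate 1. With all wells thinned to 1000 UMIs it was 0 higher and 9 lower.

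Among the 12 genes higher in high-insulin wells were Pdyn, Nucb2, Chac1, Sec11c, Manf and Ero1lb. Pdyn, the precursor of dynorphin opioid peptides, was at 538, 271 and 72.1 CPM in low-insulin wells of the sham plates and 698, 427 and 300 CPM in high-insulin wells. On the ppx plates it went from 72.3, 282 and 128 CPM to 115, 302 and 461 CPM (log2 difference 0.93, SE 0.15, adjusted p = 7.6e-07). It was higher on 6 of 6 plates. Nucb2, the precursor of the peptide nesfatin, was at 467 ± 163 CPM in low-insulin and 717 ± 227 CPM in high-insulin wells (log2 difference 0.67, SE 0.12), also on 6 of 6 plates. Both calls were lost with wells thinned to 1000 UMIs, and that of Pdyn also by DESeq2 and without ppx plate 3. Chac1 rose from 110 ± 24.8 to 226 ± 38.3 CPM on 6 of 6 plates, and Sec11c, a subunit of the signal peptidase that trims preproinsulin, from 646 ± 147 to 874 ± 165 CPM. The ER factor Manf (0.44) and the oxidase Ero1lb (0.38) rose on the log2 scale, with Ero1lb higher on 4 of 6 plates. With wells thinned to 1000 UMIs, Chac1, Sec11c, Manf and Ero1lb also lost their calls. Chac1 lost it without ppx plate 2 as well, Sec11c without sham plate 3 or ppx plate 2, Manf by DESeq2 and without sham plate 2 or 3, and Ero1lb by DESeq2 and without any sham plate or ppx plate 2. Of 38 ER genes tested, Manf and Ero1lb were the 2 called, and 31 were positive with a median of 0.16.

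The metallothioneins Mt1 and Mt2 were lower in high-insulin wells, and no other gene was called among the 16 tested of the oxidative and metal stress list. Mt2 was at 941, 1153 and 1436 CPM in low-insulin wells and 523, 512 and 411 CPM in high-insulin wells of the sham plates. On the ppx plates it was at 217, 973 and 1119 CPM and then 57.6, 599 and 617 CPM (log2 difference -1.10, SE 0.12, adjusted p = 1.9e-17), lower on 6 of 6 plates. Mt1 was at 1398 ± 545 CPM in low-insulin and 838 ± 193 CPM in high-insulin wells (log2 difference -0.76, SE 0.11). The mitochondrial ribosomal RNA mt-Rnr2 was at 80544 ± 15484 CPM in low-insulin and 56292 ± 14382 CPM in high-insulin wells, and 5 of 11 mitochondrially encoded genes were called lower, with none called among 36 nuclear genes of oxidative phosphorylation. Mitochondrial UMIs are part of the total from which the insulin share is made, so these genes are tied to the ranking. With tertiles ranked by insulin per UMI that was neither hormone nor mitochondrial, an alternative chosen after seeing the data, 13 genes were higher and 11 lower, and 15 of the 22 nuclear genes called before were called again. Mt2 (-0.98), Mt1 (-0.65), Pdyn (0.99), Nucb2 (0.61), Chac1 (1.04), Sec11c (0.52), Manf (0.42) and Ero1lb (0.39) were among the 15.

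For Ucn3, Mafa and Slc2a2 the log2 differences between tertiles were 0.01 (SE 0.11), 0.02 (SE 0.10) and 0.01 (SE 0.11), each higher on 3 of 6 plates. G6pc2 differed by 0.33 (SE 0.09, adjusted p = 0.066) and Prlr by -0.25 (SE 0.11, adjusted p = 0.63), neither past the threshold. The remaining genes called lower included Pyy (-0.9997), Rbp4 (-1.21), the cell cycle inhibitor Cdkn1a (-0.82), the class I subunit B2m (-0.60) and glutamine synthetase Glul (-0.48). The calls of Cdkn1a, B2m and Glul were lost in 9 of 13, 9 of 14 and 8 of 14 alternative settings. Rbp4 was lost without each plate in turn. Pyy kept its call in all 14 alternative settings, though on some plates few wells held a large part of its UMIs.

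Over single wells, the correlation of insulin load with ER genes was higher on each sham plate than on any ppx plate. On the sham plates the Spearman rho between a well's insulin share and its summed ER genes, as a share of non-hormone UMIs, was 0.479 over 24 wells, 0.408 over 177 and 0.474 over 192. On the ppx plates it was 0.0271 over 20 wells, 0.0809 over 292 and 0.0398 over 291. With mitochondrial UMIs left out of both shares it was 0.389, 0.341 and 0.415 on the sham plates, against -0.018, 0.0188 and 0.00871 on the ppx plates. All sham plates were above all ppx plates, on tomato-positive as on tomato-negative plates. The tomato-positive side rests on a single plate per operation, with 24 and 20 wells. The low-insulin tertile of sham plate 3 had a median ER share of 1.48% and the high-insulin tertile 2.11%, whereas on ppx plate 3 the shares were 2.15% and 2.41%. These are descriptions over wells that share a plate, a library and depth (median ER counts of 59 to 80 UMIs per well), and the pattern was noticed in the data, so no test is given. Depth moved with this pattern. The ER share rose with a well's UMIs on every plate, with rho of 0.211, 0.307 and 0.388 in sham, against 0.205, 0.207 and 0.370 in ppx. The rho of the insulin share with UMIs was -0.067, 0.131 and 0.297 in sham, against -0.406, -0.210 and -0.153 in ppx, and the part of depth was not tested. The insulin share itself covered lower values on the tomato-negative ppx plates. For granule genes the rho with insulin was 0.23 to 0.42 over the 6 plates.

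**Figure D4:**
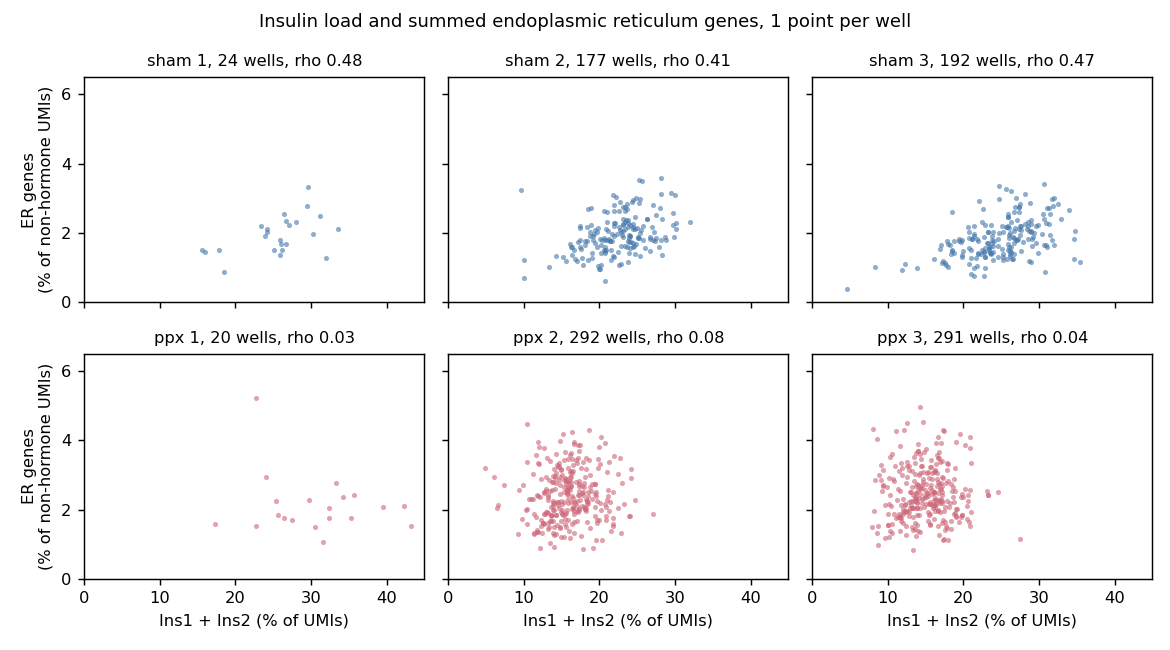
Each point is an insulin-only well, with its Ins1 plus Ins2 share of UMIs on the x axis and the summed share of 38 ER genes among non-hormone UMIs on the y axis, 1 panel per plate with Spearman's rho. The points of the sham plates slope upward (rho 0.408 to 0.479) and those of the ppx plates do not (rho 0.0271 to 0.0809).

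The spread of single genes between wells was measured on the 4 plates with at least 100 insulin-only wells, as the squared coefficient of variation (CV) left after subtracting counting noise in wells thinned to 1000 non-hormone UMIs. Over 534 genes with at least 0.2 UMIs per thinned well, the median excess was 0.128. Among beta genes, Iapp (0.0584) and G6pc2 (0.110) lay under that median. Above it were values of 0.184 for Ero1lb, 0.220 for Prlr, 0.271 for Ucn3, 0.320 for Slc2a2 and 0.414 for Mafa. The 12 genes with the largest excess began with Pyy at 6.39. After it came the stress regulator Nupr1 at 2.33, the heat shock gene Hspa1a at 1.98, B2m at 1.93, Mt2 at 1.73, the immediate early gene Fosb at 1.19, Mt1 at 1.07, Hspa1b at 1.05, the redox regulator Txnip at 1.01, Ier2 at 0.98, the co-chaperone Dnajb1 at 0.95 and Rgs2 at 0.95. Hspa5 was at 0.243. The same 12 genes led the 534 when wells were thinned to 2000 UMIs, while 6 of them were among the first 12 of the 1315 genes measured at that depth.

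A UMI of Pyy, a peptide of several islet cell types, was seen in 53.95% to 78.65% of wells over the 4 plates. On sham plate 3, ppx plate 2 and ppx plate 3 its UMIs were concentrated in few wells. On ppx plate 2 the 15 wells with the most Pyy, of 292, held 52.0% of its UMIs, and the highest well had 210 Pyy UMIs beside 8.77% Ppy. On sham plate 3 the top 10 of 192 wells held 48.0%, with 128 UMIs in the highest. On sham plate 2 the top 9 of 177 wells held 19.3%, and the excess there was 0.259 against 9.22 on sham plate 3 and 10.97 on ppx plate 2. Across wells the rho of Pyy with insulin was -0.01 to 0.25 on the 4 plates, and its summed level was lower in high-insulin tertiles. Mt1 was unlike this, with an excess of 0.937 to 1.08 on all 4 plates and a negative rho with insulin from -0.26 to -0.15. Mt2 had a rho from -0.33 to -0.15.

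**Figure D5:**
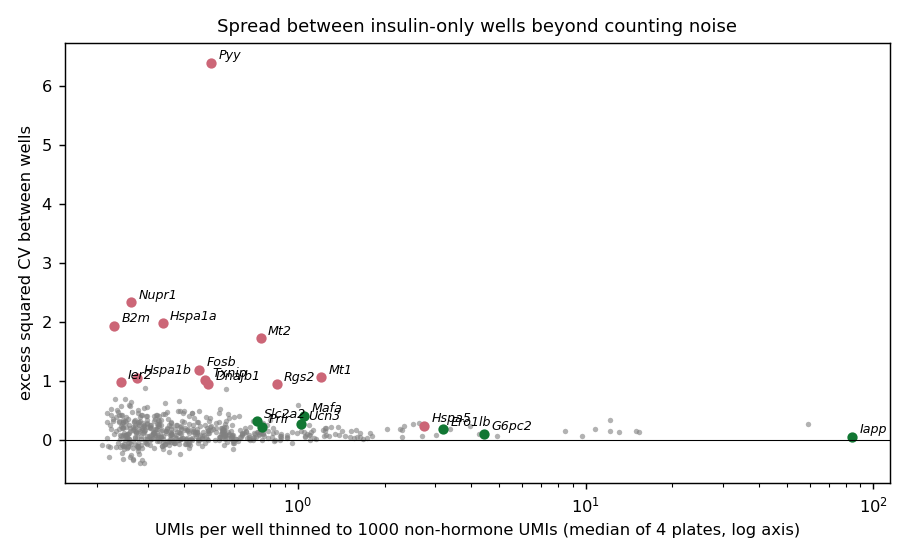
Excess squared CV between insulin-only wells against the mean UMIs per well after thinning to 1000 non-hormone UMIs (log axis), each the median of 4 plates, 1 point per gene for 534 genes. Red marks the 12 genes with the largest excess and Hspa5, and green marks beta markers, which lie between 0.0584 for Iapp and 0.414 for Mafa.

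Transcripts that mark delta, pancreatic polypeptide and ghrelin cells were higher in insulin-only wells of the tomato-positive plates, and their source was not tested. The alpha list (13 genes besides Gcg) did not follow this. In CPM of non-hormone UMIs it was at 3116 on the tomato-positive sham plate, against 3452 and 3408.5 on the other sham plates. On the tomato-positive ppx plate it was at 4047, against 3976 and 3776 on the other ppx plates. The delta list (13 genes besides Sst) summed to 3212 and 3172 CPM of non-hormone UMIs on the tomato-positive sham and ppx plates, where somatostatin-only wells numbered 206 and 214, and to 649, 1045, 940 and 654 on sham plates 2 and 3 and ppx plates 2 and 3, where they numbered 62, 19, 8 and 11. Between tomato-positive and tomato-negative plates, with operation as a covariate and the mixed plate left out, 5 of 8836 genes (0.0566%) were called and all were higher on positive plates, and 535 had an unadjusted p under 0.05. They were Sst (2862 and 3519 CPM of all UMIs against 215 to 374), Ppy (5776 and 6429 against 820 to 2407), Pyy (1812 and 1661 against 296.5 to 573), Rbp4 (370 and 511 against 6.28 to 24.01) and Ghrl, the ghrelin gene. Ghrl was at 96.1 CPM on the sham and 383 CPM on the ppx positive plate, 52 UMIs in all, and had 0 UMIs on the negative plates. All 5 are known from other islet cells. Sst and Ppy are part of the rule, so their levels are descriptions although they were counted among the 5. With no filter on low counts 0 genes were called, and leaving out single plates gave 22 without sham plate 1, 25 without sham plate 3, 14 without ppx plate 1 and 10 without ppx plate 2. The tomato-positive plates held 24 and 20 members, so beta markers there rest on few wells, and Ucn3 (540 and 698 CPM against 837 to 984) did not pass (adjusted p = 0.75).

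Summed markers of cells other than endocrine cells were at most 180 CPM in insulin-only wells on every plate, except for duct genes. As CPM of non-hormone UMIs, the 11 endothelial genes summed to 9.56 to 112 over the plates, the 12 macrophage genes to 47.8 to 180, the 11 stromal genes to 0 to 28.4, the 10 lymphocyte genes to 0 to 19.1, the 7 Schwann genes to 13.1 to 66.9, the 6 erythroid genes to 0 to 39.7 and the 20 acinar genes to 1.54 to 104. Most members of the endothelial and macrophage lists had UMIs. No UMI was seen for 1 of 11 endothelial genes (Cdh5) and 1 of 12 macrophage genes (Adgre1). The same held for 5 of 11 stromal genes, Col1a1 among them, and 5 of 10 lymphocyte genes, Cd3e among them. The 12 duct genes summed to 1013 to 1371, and 1 of them, Krt19, had no UMI.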

How the data were processed

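Single islet cells of 6 plates (384 wells each) were measured by MARS-seq. The deposited files hold UMI counts per gene and well made by the authors. Reads were aligned with HISAT 0.1.6 to mm10, per the submitters' processing notes. For the counting tool and the annotation, nothing is given in the sources used here. How reads shared by near-identical genes such as Ins1 and Ins2 were counted is therefore unknown. ERCC spike-in rows (92, with 3 UMIs) were dropped, as were 96 wells under 500 UMIs and 93 wells above 20% mitochondrial UMIs. No doublet caller was run, and wells with insulin and Sst both above threshold (170) were left out by the rule. UMIs were summed per plate and group and tested with edgeR 4.0.16 (quasi-likelihood test, TMM, filterByExpr, Benjamini-Hochberg adjusted p under 0.05) in R 4.3.3, which was also tested on simulated data. DESeq2 1.42.0, other scaling, filters and left-out plates were alternatives. Plate values were compared by exact permutation in Python 3.11.15 with scipy 1.17.1. In each comparison the named genes were up to 12 called genes per direction with the largest change (8 for tomato status), called list members and the beta markers. Those picked by change for ppx and for tomato status also had plates that did not overlap. Those picked by change in the other comparisons had at least 100 CPM in the higher group. Other called ppx genes were named after their values were seen. The members and lists were chosen with earlier results of these data known. Gene positions are from GENCODE (GRCm38) and promoters from RefSeq (GRCm38.p6).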

Additional observations from a re-analysis of the deposited data

Results flagged for a closer look

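For 5 plate values of insulin-only wells, ppx minus sham pointed in opposite directions on tomato-positive plates (1 per operation) and tomato-negative plates (1 sham, 2 ppx). These differences were not tested. The insulin-only share of kept wells differed by -1.14 percentage points on positive and 25.3 points on negative plates. The median insulin share of UMIs differed by 5.01 and -10.1 points. The SD of the log2 insulin share differed by 0.0366 and -0.0126. The median mitochondrial share differed by -1.78 and 1.86 points, and the Ins1 part of insulin UMIs by -17.4 and 18.6 points. Tomato-positive plates held 24 and 20 insulin-only wells.

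Pyy was the single gene whose operation effect differed between insulin-only and glucagon-only wells, by -0.91 on the log2 scale (edgeR adjusted p = 0.037). Glucagon-only wells numbered 5, 13 and 7 on the ppx plates, and DESeq2 called no gene. The call was also lost without sham plate 1, without ppx plate 3 and with no filter on low counts.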

How the results depend on the processing

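The direction of each plate value was kept in every alternative except the median mitochondrial share, whose difference was -0.536 points with at most 10% mitochondrial UMIs and -0.115 points without ppx plate 3. Leaving out single plates gave 3.09 to 44.1 points for the insulin-only share, -9.41 to -1.32 for insulin load, 0.0116 to 0.0425 for its SD, -983 to -526 for UMIs, -0.115 to 1.598 for the mitochondrial share and 0.417 to 23.9 for the Ins1 part. The 29 genes between operations became 15 with DESeq2 (8 shared), 67 without a filter on low counts, 52 without both tomato-positive plates and 12 to 51 without single plates. With the replicate block they were 70 (49 higher, 21 lower), all 29 among them, and the block left plate values at, for example, 18.6 points. Nothing in the labels says that the numbers pair plates. Same-numbered plates had correlations of deviations of 0.0391, -0.00976 and 0.0269, and other-numbered plates of -0.0468 to 0.0546. Since both kinds lay near 0 in the same range, these values cannot decide whether plates were paired. The 945 genes against somatostatin-only wells became 518 without both tomato-positive plates and 616 to 978 without single plates. The 1199 against glucagon-only wells became 793 to 1216 without single plates. The 27 genes between insulin tertiles became 16 with DESeq2, 47 without both tomato-positive plates, 9 in thinned wells and 10 to 50 without single plates. The 5 genes by tomato status became 0 without a filter and 5 to 25 without single plates. The 1 interaction became 0 with DESeq2, 2 with RLE size factors, 0 without a filter and 1 to 2 without single plates, where Pyy was not among them without sham plate 1 or ppx plate 3. Of the 12 most variable genes 6 were shared at 2000 UMIs. In these counts the cause of each change was not tested. Plates of 24 and 20 insulin-only wells, and the few somatostatin-only and glucagon-only wells of the ppx plates, limit the depth of the comparisons.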
